A study of Homo sapiens with 9 samples.

Results

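The collagen genes were examined by RNA sequencing of the SKNO-1 line, which derives from a human acute myeloid leukaemia, carries the t(8;21) fusion AML1-ETO and has intact ASXL2. Members were all genes whose symbol has the form COL, a type number, A and a chain number, which gave 44 of the 25680 gene symbols in the count tables. The 9 samples were 3 of cells with a control shRNA (shControl), 3 each with 1 of 2 shRNAs against ASXL2, numbered 2 and 3 in the labels (shASXL2-2 and shASXL2-3). The labels call the control EV, so whether it was an empty vector or a control shRNA is uncertain. All groups are the same cell line without a further drug or time label, and the samples of each group carry the numbers 1, 13 and 25, whose meaning the labels do not give. The study describes biological triplicates, but no source used here says whether these came from separate infections, so p-values measure only the spread between these samples.

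Collagens are secreted or membrane-anchored proteins built of 3 alpha chains wound into a triple helix. Several genes usually supply the chains of a single type, so a trimer can form only if the right partners are made in the same cell. Fibroblasts, chondrocytes and endothelial cells are their main producers, and blood cells mostly meet collagen as a matrix to bind through receptors. Some types lie outside the classical fibrils: fibril-associated collagens decorate fibril surfaces, multiplexins sit in basement membranes, and membrane-spanning collagens stay on the cell surface.

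Each sample held between 27714431 and 35406063 counts with 1 transcript per gene, so that 3 counts, the most that a count of 0 allows, corresponded to 0.0825 to 0.109 CPM (normalised read count, scaled to the effective library size). The targeted gene ASXL2 lay between 67.9 and 74.7 CPM in shControl, between 30.4 and 36.2 CPM in shASXL2-2 and between 26.9 and 41.1 CPM in shASXL2-3. Of 8 markers of a t(8;21) myeloid line 7 were expressed, with MPO between 6366 and 10240 CPM, while CD34 stayed at 2 to 10 counts. Of 9 fibroblast or stromal markers 3 passed the count filter (PDGFRB, FN1 and TWIST1), and the summed level of all 9 was 2.72 to 4.0 CPM in shControl, 2.51 to 3.81 CPM in shASXL2-2 and 2.69 to 3.78 CPM in shASXL2-3. Of the other stromal markers, POSTN had no count in any sample, DCN and FAP at most 1, LUM and THY1 at most 2 and PDGFRA at most 10. Of 5 endothelial markers 2 passed the filter, KDR at 1.97 to 4.76 CPM and VWF at 0.291 to 3.64 CPM. CDH5 was at 0, TEK had at most 8 counts and CLDN5 at most 6. The sum of the 5 was 2.70 to 5.82 CPM, and none of 5 epithelial markers passed the filter. The samples numbered 1 stood apart from the rest on the leading principal component, which held 52.9% of the variance, at -24.9 in shControl, -21.2 in shASXL2-2 and -58.6 in shASXL2-3, against 4.84 to 25.0 in the other 6 samples. The sample shASXL2-3 number 1 was therefore the most extreme library, and values that turn on it are given without it where they bear on a result.

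Most collagen genes were silent or nearly so in these cells. Of the 44 members 12 (27.3%) passed the filter on low counts, against 14199 of all 25680 symbols (55.3%): COL2A1, COL5A2, COL6A1, COL6A5, COL7A1, COL9A2, COL9A3, COL14A1, COL18A1, COL23A1, COL24A1 and COL26A1. A further 10 members had no count in any of the 9 samples: COL1A2, COL4A1, COL4A5, COL5A1, COL6A3, COL9A1, COL11A1, COL13A1, COL19A1 and COL21A1. In 15 members no sample exceeded 3 counts: COL3A1, COL4A6, COL5A3, COL6A2, COL8A1, COL10A1, COL11A2, COL12A1, COL15A1, COL16A1, COL17A1, COL20A1, COL22A1, COL27A1 and COL28A1. The remaining 7, COL1A1, COL4A2, COL4A3, COL4A4, COL6A6, COL8A2 and COL25A1, had more than 3 counts in some sample but stayed below the filter, with at most 16 counts in a sample (COL8A2).

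By structural class, 3 of 11 fibril-forming members, 2 of 5 type VI members, 3 of 10 fibril-associated members and 1 of 4 membrane-spanning members were expressed. The anchoring fibril chain COL7A1, 1 of 2 multiplexins and 1 of 2 unclassified members also passed. None of the 6 chains of collagen IV, the network of basement membranes, and none of the 3 short-chain network collagens did. The chains of collagen I and III, the bulk of fibroblast matrix, were at or near 0: COL1A1 had at most 5 counts in a sample, COL3A1 at most 3 and COL1A2 none.

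Some expressed chains lacked partners with which they are known to form trimers. COL6A1 had 158 to 638 counts in a sample, whereas COL6A2 had at most 1 and COL6A3 none. COL6A5, another chain of the same type, had 63 to 196 counts. COL5A2, a chain that assembles with COL5A1, had 92 to 252 counts against none for COL5A1. Of collagen IX, a trimer of the products of COL9A1, COL9A2 and COL9A3, COL9A2 and COL9A3 were among the most abundant members, and COL9A1 had no count in any sample. Other expressed members, COL18A1, COL23A1, COL7A1 and COL14A1 among them, encode chains that form trimers with themselves and need no such partner. Protein was not measured.

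**Figure D1:**
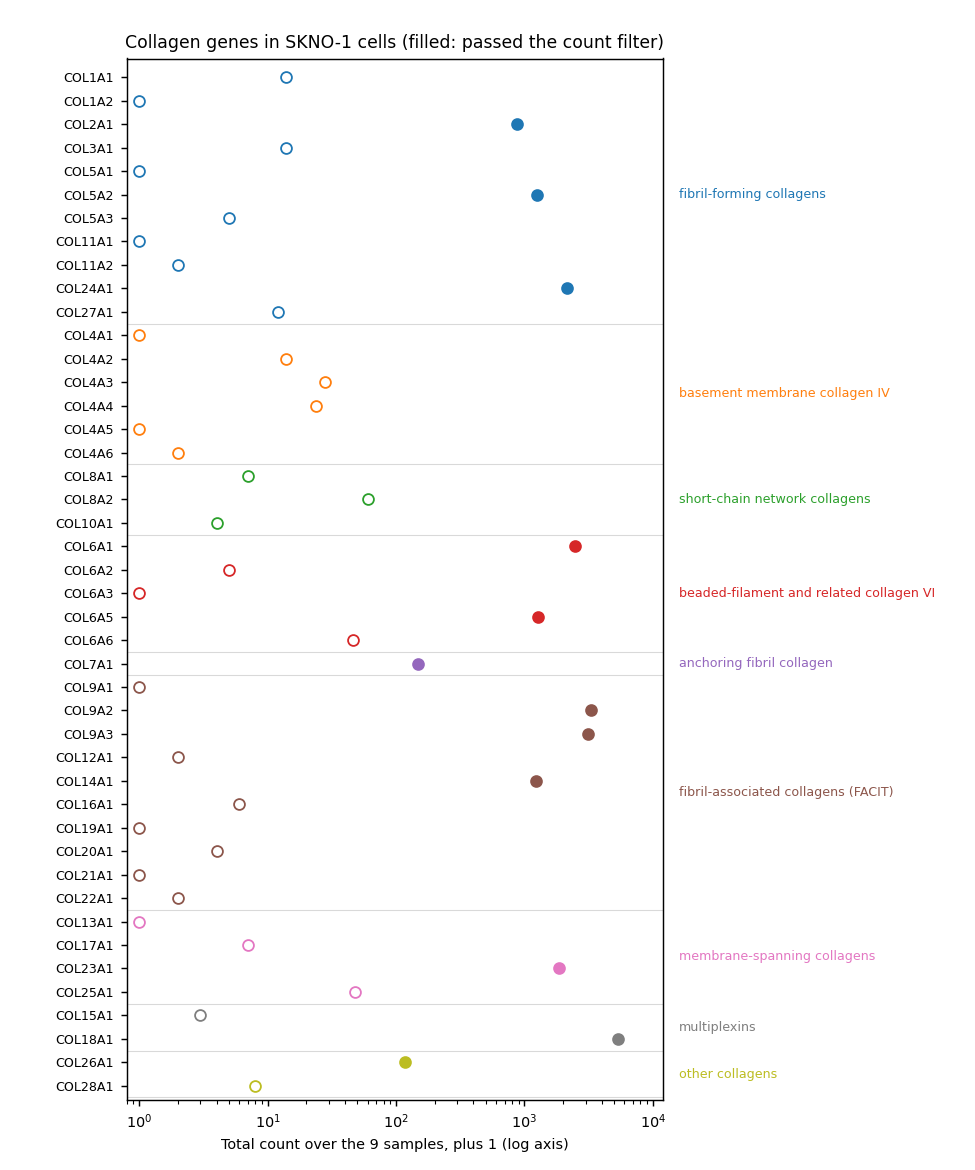
Total counts of the 44 collagen genes over the 9 samples plus 1, on a log axis, ordered by structural class, with filled circles for the 12 that passed the filter and open circles for the rest. Partner chains split: COL6A1 stands at a total of 2454 while COL6A3 is at 0, and COL9A2 at 3300 while COL9A1 is at 0.

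The sequences before the transcription start are shown for COL9A2 and for both annotated starts of COL9A1, the expressed and the silent chain of the same trimer, and for COL23A1, the expressed membrane-spanning member. They are the 250 bases upstream of each start, 5′ to 3′ on the strand of the gene, from RefSeq (table on GRCh38.p14), each matched exactly once to GRCh37. The minus strand holds all of them: COL9A2 at chr1:40782959-40783208, COL9A1 start 1 at chr6:71012788-71013037, COL9A1 start 2 at chr6:70992901-70993150 and COL23A1 at chr5:178017395-178017644. The COL9A2 window lies inside the gene span given below (40766161 to 40783485), so its RefSeq start is not the outermost start of that gene model. Capitals mark CpG dinucleotides, the sites of DNA methylation, which are dense in the promoters of many broadly expressed genes.
COL9A2: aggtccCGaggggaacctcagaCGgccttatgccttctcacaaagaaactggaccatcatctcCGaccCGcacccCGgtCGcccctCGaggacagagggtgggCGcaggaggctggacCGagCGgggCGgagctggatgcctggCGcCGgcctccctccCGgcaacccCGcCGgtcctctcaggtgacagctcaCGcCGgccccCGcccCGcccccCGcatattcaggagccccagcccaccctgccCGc
COL9A1 start 1: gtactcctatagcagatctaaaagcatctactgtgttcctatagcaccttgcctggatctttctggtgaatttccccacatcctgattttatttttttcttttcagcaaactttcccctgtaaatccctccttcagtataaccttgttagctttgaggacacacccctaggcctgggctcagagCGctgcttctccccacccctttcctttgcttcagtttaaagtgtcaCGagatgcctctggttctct
COL9A1 start 2: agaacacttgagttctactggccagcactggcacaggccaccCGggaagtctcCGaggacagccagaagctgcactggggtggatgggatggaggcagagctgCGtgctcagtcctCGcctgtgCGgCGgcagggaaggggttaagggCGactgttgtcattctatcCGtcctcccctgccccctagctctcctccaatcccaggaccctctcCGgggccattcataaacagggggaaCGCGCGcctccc
COL23A1: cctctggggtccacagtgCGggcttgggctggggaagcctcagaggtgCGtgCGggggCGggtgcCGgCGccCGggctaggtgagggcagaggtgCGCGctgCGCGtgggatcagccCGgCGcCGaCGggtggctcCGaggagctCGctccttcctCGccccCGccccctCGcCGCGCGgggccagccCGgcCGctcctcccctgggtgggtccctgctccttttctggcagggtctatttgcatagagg
COL9A2 held 22 CpG at 71.6% GC and COL23A1 held 25 at 74.4% GC, whereas the starts of COL9A1 held 2 at 45.6% GC and 12 at 63.2% GC. The promoter table listed 32 of the 44 members and, among those expressed, COL7A1, COL9A2, COL18A1, COL23A1, COL24A1 and COL26A1. Over windows of 250 bases before to 50 after the start, the median was 23 CpG in the 8 windows of expressed members, 16 in the 36 windows of members below the filter and 12 in the 13 windows of members without a count. The ranges overlapped, at 10 to 46, 1 to 45 and 2 to 45 CpG in the same order. The lowest expressed window, at 10, was a start of COL18A1 whose other listed start held 46, and use of the starts was not measured. Whether CpG number differs between expressed and silent members was not tested. All 35116 listed windows had a median of 14, those of tested genes 25 and those of genes below the filter 7. The letters TGTGGT, the core that RUNX1 binds, read on both strands, were in 0 of 8 windows of expressed members and 1 of 36 of the others, against 13.1% of all windows. These are descriptions of sequence, and methylation was not measured.

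Per kilobase of transcript, the most abundant member in shControl was COL9A3 (NM_001853, chromosome 20 at 61447596 to 61472511), with 4.70 ± 1.69 CPM per kb (SD, n = 3). COL9A2 (NM_001852, chromosome 1 at 40766161 to 40783485) followed with 3.87 ± 1.08 and COL18A1 (NM_030582, chromosome 21 at 46825080 to 46933634) with 3.31 ± 0.304 CPM per kb. The ranges of these 3 genes overlapped. COL6A1 (NM_001848, chromosome 21 at 47401684 to 47424964) at 1.96 ± 0.158 CPM per kb lay apart from COL18A1 and level with COL23A1 (NM_173465, chromosome 5 at 177664477 to 178017394) at 1.96 ± 0.307. COL24A1 had 1.27 ± 0.582 CPM per kb. COL14A1, COL5A2, COL6A5 and COL2A1 formed an overlapping group from 0.758 down to 0.628 CPM per kb. COL26A1 at 0.142 ± 0.0220 and COL7A1 at 0.0489 ± 0.0248 CPM per kb lay apart below them. Even COL9A3 exceeded only 36.4% of the 12254 tested genes with a known length, so the expressed collagens were low-level transcripts. The 12 genes summed to 67.6 to 118 CPM in a sample, with the maximum in shASXL2-3 number 1. COL18A1 led the sum in 8 samples and COL9A2 in shASXL2-3 number 1.

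Each shRNA was next compared with shControl, and the shRNAs with each other. Both comparisons against shControl use the same 3 control samples. In the edgeR fit by group, none of the 12 members passed an adjusted p of 0.05 in any comparison, and neither did any of the 14199 genes tested (0.0%). ASXL2 itself was not called, at mean levels of 70.2 CPM in shControl, 34.3 CPM in shASXL2-2 and 32.4 CPM in shASXL2-3. The lack of a call in this fit therefore does not show that a level was unchanged. At an unadjusted p under 0.05 the collagens numbered 0 for shASXL2-2 against shControl (5.37% of all genes), 2 for shASXL2-3 against shControl (5.09%) and 3 for shASXL2-3 against shASXL2-2 (2.06%). Because same-numbered samples of different groups deviated together, a second fit took the number as a block (the replicate block). That fit called 40 genes (0.282%), 59 genes (0.416%) and 15 genes (0.106%), and among the collagens only COL14A1, for shASXL2-3 against shControl. These counts depended on single samples: with 1 sample left out of this fit they ran from 0 to 1604, from 1 to 368 and from 0 to 257 genes. DESeq2 without the block called 0, 1 and 0 collagens, against 0.176%, 0.183% and 0.0775% of all genes. DESeq2 with the block, a fit added after seeing the data, called 0, 1 and 1 collagens, COL14A1 both times, against 2.63%, 3.34% and 1.07% of all genes. In all 3 same-numbered pairs 5 of the 12 members differed in 1 direction for shASXL2-2 against shControl (51.6% of all genes), 4 for shASXL2-3 against shControl (40.5%) and 6 for shASXL2-3 against shASXL2-2 (31.1%).

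**Figure D2:**
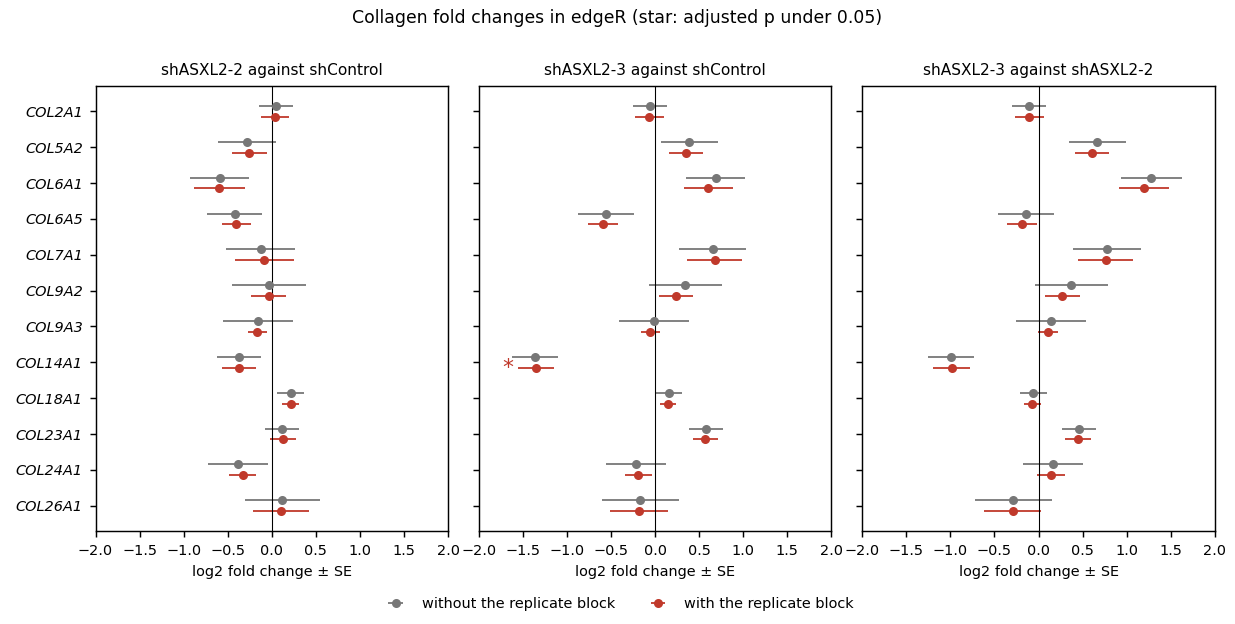
Log2 fold changes with their standard errors for the 12 expressed collagen genes in the 3 comparisons between groups, from edgeR without (grey) and with (red) the replicate block, with a star at an adjusted p under 0.05. The star stands only at COL14A1 for shASXL2-3 against shControl, at -1.35 with the block.

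Among fibril-associated collagens, COL14A1 differed most. It encodes collagen XIV, which binds the surface of fibrils in skin and tendon (NM_021110, chromosome 8 at 121072019 to 121385812). Its level was 7.70, 5.82 and 4.70 CPM in the shControl samples numbered 1, 13 and 25, 5.02, 5.36 and 3.74 CPM in shASXL2-2, and 1.8, 2.90 and 2.37 CPM in shASXL2-3. All 3 shASXL2-3 samples lay below all other 6, while shASXL2-2 and shControl overlapped. As counts, this was 53, 94 and 65 in shASXL2-3 against 141 to 280 in shControl. Relative to the shControl sample of the same number, shASXL2-3 kept 23.4%, 49.9% and 50.3% of the level, and shASXL2-2 kept 65.2%, 92.1% and 79.6%.

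Here and below a log2 fold change is given ± its standard error (SE). For shASXL2-3 against shControl it was -1.36 ± 0.26 for COL14A1, with an unadjusted p of 0.000419 and an adjusted p of 0.897 in edgeR without the block. With the block it fell by 1.35 on the log2 scale (SE 0.21, adjusted p = 0.0308). The call rests on the samples kept: of the 9 fits with the block that left out 1 sample, it held without shASXL2-3 number 1 (-1.08, adjusted p = 0.00611, with 2.58% of all genes called) and without shASXL2-3 number 13 (-1.49, adjusted p = 0.0336, with 0.648% called), and was lost in the other 7. It was also lost when transcript length entered the fit with the block (-1.24, adjusted p = 0.0506). Directly between the shRNAs, COL14A1 was lower in shASXL2-3 by a log2 fold change of -0.996 ± 0.26 (adjusted p = 0.998), and of -0.98 with the block (adjusted p = 0.125). For shASXL2-2 against shControl the value was -0.37 ± 0.25 (adjusted p = 0.966). The groups were apart for COL14A1 alone among the 12 in shASXL2-3 against shControl (10.1% of all genes). Leaving out the 3 samples numbered 1 gave -0.99 for shASXL2-3 against shControl, from an unadjusted p of 0.00412 in edgeR, so the direction did not rest on them. In bulk RNA, fewer cells that express a gene and less of its RNA per cell cannot be told apart.

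The collagen IX chains, which in cartilage coat the fibrils of collagen II, differed with the sample number and not, past the test, between groups. COL9A2 had 13.9, 11.4 and 7.80 CPM in the shControl samples numbered 1, 13 and 25, 14.3, 9.81 and 8.32 CPM in shASXL2-2, and 24.8, 8.43 and 8.84 CPM in shASXL2-3. COL9A3 had 16.2, 11.1 and 7.90 CPM in shControl, 15, 9.56 and 7.03 CPM in shASXL2-2, and 18.3, 8.98 and 7.53 CPM in shASXL2-3. For both genes the 3 samples numbered 1 were the highest of all 9, and the groups overlapped. Between groups, the log2 fold changes of COL9A2 ran from -0.03 ± 0.42 for shASXL2-2 against shControl to 0.37 ± 0.42 for shASXL2-3 against shASXL2-2, and those of COL9A3 from -0.16 ± 0.40 to 0.14 ± 0.40. The 0.34 of COL9A2 for shASXL2-3 against shControl was -0.36 without shASXL2-3 number 1. A stretch of 155 of the 4841 exon bases of COL9A3 is shared with TCFL5 on the opposite strand, which had 42.0 CPM on average. The study's methods describe libraries that did not mark strand.

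Collagen VI forms beaded filaments around cells, and its first chain, COL6A1, had its widest difference between the shRNAs. COL6A1 had 7.89, 9.01 and 7.83 CPM in shControl, 5.29, 5.36 and 5.75 CPM in shASXL2-2, and 21.7, 6.95 and 11.2 CPM in shASXL2-3, in the order 1, 13 and 25. All shASXL2-2 samples lay below all others, and shASXL2-3 ranged from under to far over shControl, led by its number 1. For shASXL2-3 against shASXL2-2 the log2 fold change was 1.28 ± 0.34, with an unadjusted p of 0.00407 and an adjusted p of 0.998 in edgeR. With the block it was 1.20 ± 0.29 (adjusted p = 0.154). Without shASXL2-3 number 1 it was 0.73 without the block, and 0.68 with it (adjusted p = 0.0943). Without shASXL2-3 number 13 the block gave 1.58 (adjusted p = 0.0123, with 1.79% of all genes called).

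Against shControl, the log2 fold change of COL6A1 was -0.59 ± 0.34 in shASXL2-2 and at 0.69 ± 0.33 in shASXL2-3, on either side of the control. Neither passed in edgeR with or without the block. By same-numbered pairs, shASXL2-2 had 67.0%, 59.4% and 73.4% of the control level of COL6A1, and shASXL2-3 had 275%, 77.1% and 144%. COL6A1 was the only member whose groups were apart in shASXL2-2 against shControl (14.9% of all genes). Without shASXL2-3 number 1 the block called shASXL2-2 against shControl at -0.60 (adjusted p = 0.0229) in a fit that called 1604 genes (11.2%), and shASXL2-3 against shControl shrank to 0.08. COL6A5, a later-named chain of the same type, ranged from 4.10 to 6.67 CPM in shControl, from 3.68 to 5.01 CPM in shASXL2-2 and from 2.14 to 4.91 CPM in shASXL2-3. It was lower than the same-numbered control in every pair of both shRNAs, with log2 fold changes of -0.42 ± 0.31 in shASXL2-2 and -0.56 ± 0.31 in shASXL2-3, and did not pass (adjusted p = 0.244 and 0.126 with the block). Without shASXL2-3 number 1, its lowest sample, the log2 fold change of COL6A5 in shASXL2-3 was -0.27. The row used for COL6A5 carries a non-coding RefSeq accession (NR_022012), whose total of 1264 counts was close to the 1260 and 1238 of its other rows.

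**Figure D3:**
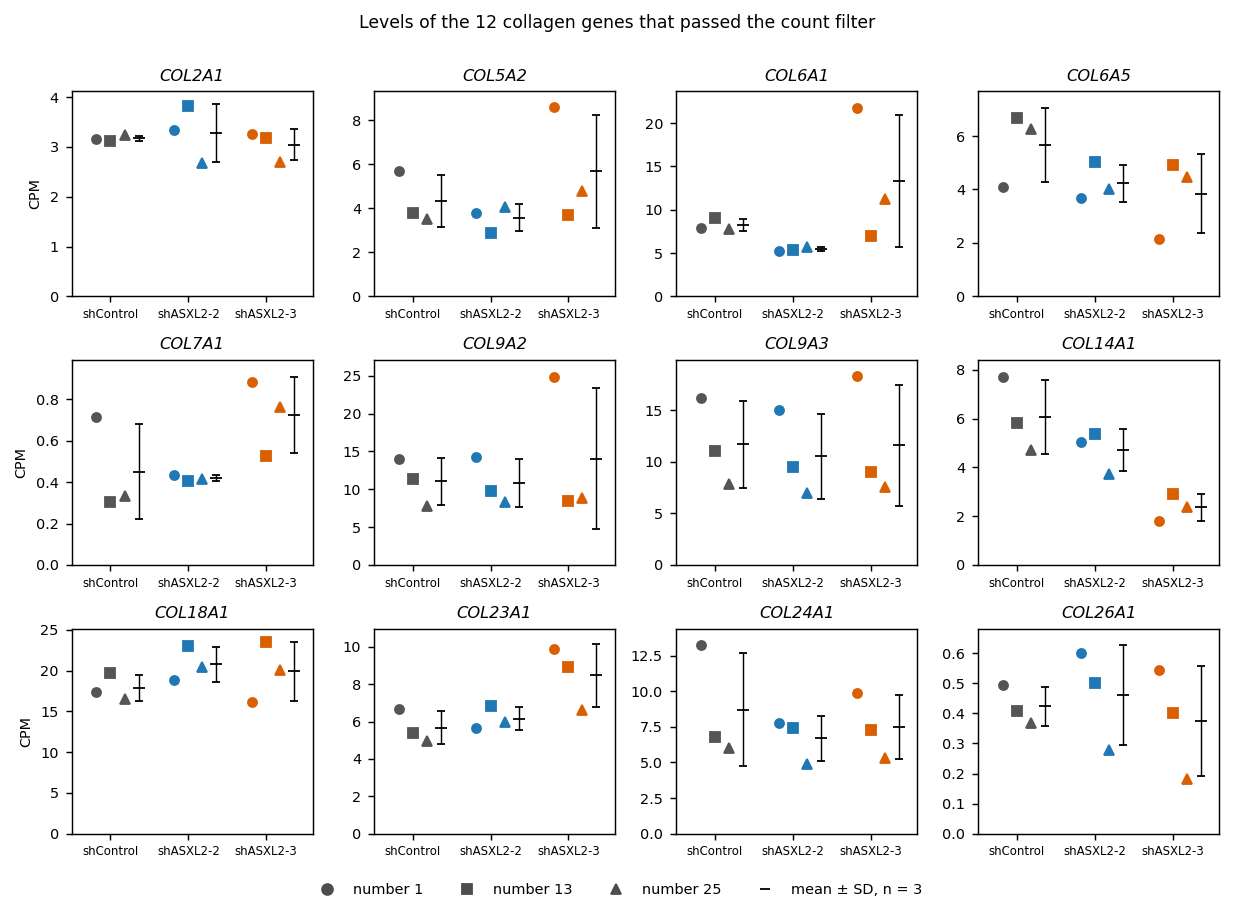
CPM of the 12 expressed collagen genes in every sample, by group, with circles for number 1, squares for 13, triangles for 25 and a dash with bars for the group mean ± SD (n = 3); each axis starts at 0. COL14A1 is lowest in the 3 shASXL2-3 samples (1.8 to 2.90 CPM), and COL6A1 peaks at 21.7 CPM in shASXL2-3 number 1.

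COL23A1, a membrane-spanning collagen that can be shed from the cell surface, had its highest mean in shASXL2-3. It had 6.68, 5.41 and 4.97 CPM in shControl, 5.66, 6.86 and 5.96 CPM in shASXL2-2, and 9.91, 8.95 and 6.62 CPM in shASXL2-3. Each shASXL2-3 sample exceeded its same-numbered partner in both other groups, although the lowest of them lay within the range of the others. The log2 fold change for shASXL2-3 was 0.58 ± 0.19 against shControl (unadjusted p of 0.0143, adjusted p = 0.967 in edgeR) and 0.46 ± 0.19 against shASXL2-2 (unadjusted p of 0.0383). With the block these were 0.57 (adjusted p = 0.105) and 0.45 (adjusted p = 0.271). For shASXL2-2 against shControl the value was 0.11 ± 0.19.

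COL18A1, a multiplexin whose C-terminal fragment is endostatin, was the member with the most counts in total. It had 17.3, 19.7 and 16.6 CPM in shControl, 18.8, 23.0 and 20.5 CPM in shASXL2-2, and 16.2, 23.5 and 20.1 CPM in shASXL2-3. The 3 groups overlapped, and each shASXL2-2 sample was above its same-numbered control. The log2 fold changes were 0.22 ± 0.15 in shASXL2-2, 0.16 ± 0.15 in shASXL2-3 and -0.06 ± 0.15 between the shRNAs. Of its 8464 exon bases 1563 lie over exons of SLC19A1 on the opposite strand, a folate carrier with 151 CPM on average. If the libraries were unstranded, as the study's methods describe, reads of both genes cannot be separated there. SLC19A1 itself did not pass in any comparison between groups.

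Of the fibril-forming members, COL5A2, a minor chain that tunes fibril width, ranged from 3.53 to 5.69 CPM in shControl, from 2.88 to 4.05 CPM in shASXL2-2 and from 3.70 to 8.58 CPM in shASXL2-3. Its largest log2 fold change was 0.67 ± 0.33 between the shRNAs (adjusted p = 0.998), and 0.24 ± 0.27 without shASXL2-3 number 1, its highest sample. COL24A1, a fibrillar chain of developing bone, ranged from 6.03 to 13.3 CPM in shControl, from 4.89 to 7.77 CPM in shASXL2-2 and from 5.35 to 9.87 CPM in shASXL2-3. COL2A1, the main collagen of cartilage, was nearly level, at 3.17 ± 0.0536, 3.28 ± 0.580 and 3.05 ± 0.309 CPM (SD, n = 3) in shControl, shASXL2-2 and shASXL2-3. Its fold changes lay between -0.11 and 0.05 on the log2 scale.

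COL7A1, which anchors the basement membrane of skin, was near the lower limit of detection, with 9 to 26 counts in shControl, 12 to 13 in shASXL2-2 and 17 to 26 in shASXL2-3. Its shASXL2-3 samples lay above all shASXL2-2 samples, with a log2 fold change of 0.78 ± 0.38 (adjusted p = 0.998), and overlapped with shControl. Between the shRNAs the groups were thus apart for 3 of the 12 members, COL6A1 and COL7A1 above and COL14A1 below (4.66% of all genes). COL26A1 had 5 to 18 counts in a sample, and its groups overlapped.

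More collagens were called by sample number than by shRNA. In the fit with group and number, samples numbered 1 differed from those numbered 13 and 25 in 6 of the 12 members, against 46.3% of all genes tested, so the collagens were called at about the rate of the transcriptome. Of these, 4 were higher (24.1% of all genes were) and 2 lower (22.2%). COL9A3 rose by 0.94 ± 0.09 on the log2 scale (adjusted p = 0.000161), COL9A2 by 0.93 ± 0.16 (adjusted p = 0.00176), COL24A1 by 0.70 ± 0.13 (adjusted p = 0.00226) and COL5A2 by 0.63 ± 0.16 (adjusted p = 0.0105). COL6A5 fell by 0.67 on the log2 scale (SE 0.15, adjusted p = 0.00593) and COL18A1 by 0.23 (SE 0.08, adjusted p = 0.0398). The call of COL18A1 was lost with DESeq2 (adjusted p = 0.0626) and in 7 of the 9 fits that left out 1 sample, all but those without shControl number 1 or number 25. Without shASXL2-3 number 1 the values were -0.13 for COL18A1, 0.61 for COL9A2 (adjusted p = 0.00132) and 0.41 for COL5A2 (adjusted p = 0.0662), and COL14A1 was called at 0.38 (adjusted p = 0.0432). COL23A1 was called at 0.36 without shASXL2-2 number 1 (adjusted p = 0.0408). COL9A2, COL9A3, COL24A1 and COL6A5 were called in all 9 fits. SLC19A1, which shares exon bases with COL18A1, also fell, by 0.56 on the log2 scale (SE 0.09, adjusted p = 0.000973), and its part in the change of COL18A1 was not tested.

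For COL9A2, COL9A3 and COL24A1 the 3 samples numbered 1 lay above all other 6 (14.4% of all genes did). The ratio of number 1 to the mean of 13 and 25 for COL9A3 was 1.71 in shControl, 1.81 in shASXL2-2 and 2.22 in shASXL2-3. For COL9A2 it was 1.46, 1.58 and 2.87, and for COL24A1 2.07, 1.26 and 1.56. For COL6A1 number 1 stood out in a single group: its ratio was 0.937 in shControl, 0.952 in shASXL2-2 and 2.39 in shASXL2-3. COL7A1, near the lower limit of detection, had its highest ratio in shControl, with 2.24 against 1.06 in shASXL2-2 and 1.37 in shASXL2-3. COL14A1 pointed in opposite ways, with 1.46 in shControl, 1.10 in shASXL2-2 and 0.685 in shASXL2-3. Whether these ratios differ between groups was not tested.

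**Figure D4:**
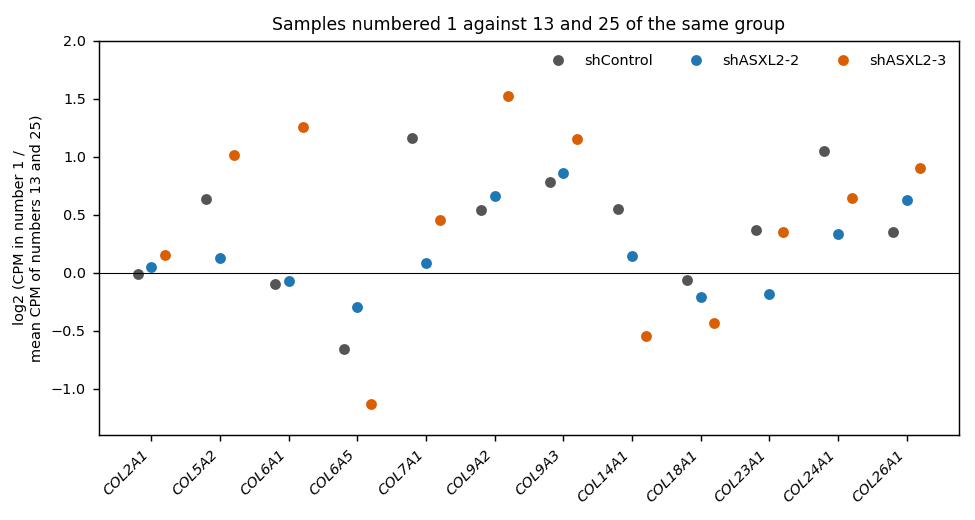
For each expressed collagen gene, the log2 ratio of the CPM in the sample numbered 1 to the mean CPM of numbers 13 and 25 of the same group, with 1 point per group. The 3 points of COL9A3 lie between 0.78 and 1.15, while COL6A1 is near 0 in shControl and shASXL2-2 and at 1.26 in shASXL2-3.

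Some genes that modify, bind or degrade collagen were also expressed, beside the 12 of 44 collagen genes. The filter passed 12 of 15 genes of prolyl and lysyl modification, 14 of 19 of folding, export, trimming and cross-linking, 9 of 13 receptors and 3 of 7 degrading enzymes. Of all symbols 55.3% passed. In edgeR without the block none of them passed between groups. With the block PLOD3, a lysyl hydroxylase that also glycosylates collagen, rose in shASXL2-3 against shASXL2-2 by 0.60 ± 0.09 on the log2 scale (adjusted p = 0.0407). In that comparison 0.106% of all genes were called, and no other gene of the 4 lists passed in any. With 1 sample left out, that comparison called 0 to 257 genes, and PLOD3 was not followed through those fits. PLOD3 stood at 108 ± 11.6 CPM in shControl, 85.6 ± 9.97 CPM in shASXL2-2 and 130 ± 6.72 CPM in shASXL2-3 (SD, n = 3). All shASXL2-3 samples lay above all others, the lowest at 121.9 CPM against 120.7 CPM in shControl number 25. Of all genes, shASXL2-3 lay apart from shControl in 10.1% and from shASXL2-2 in 4.66%.

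In the modification list, at an unadjusted p under 0.05 in edgeR without the block, 2 genes were higher and 0 lower in shASXL2-3 against shControl, and 0 higher and 2 lower in shASXL2-2, of the 12 tested (5.09% and 5.37% of all genes). PLOD3 was in both counts. With the block these counts were 6 and 0 in shASXL2-3 and 0 and 2 in shASXL2-2 (18.7% of all genes in each). Between the shRNAs the block gave 6 higher and 0 lower in shASXL2-3 (11.9% of all genes). P4HB, the shared subunit of prolyl hydroxylase, had 1317 CPM in shControl, 1453 CPM in shASXL2-2 and 1654 CPM in shASXL2-3, a log2 fold change of 0.33 ± 0.11 in shASXL2-3 against shControl. LEPREL2, a prolyl hydroxylase of another position, had 9.48, 7.09 and 11.5 CPM, and its highest sample, at 17.8 CPM, was shASXL2-3 number 1, with 7.69 and 9.03 CPM in the other shASXL2-3 samples. Among folding and trimming genes, SPARC, a secreted collagen-binding protein, had log2 fold changes against shControl of -0.27 ± 0.11 in shASXL2-2 and -0.32 ± 0.11 in shASXL2-3. PCOLCE2, an enhancer of procollagen trimming, had -0.35 ± 0.17 and -0.40 ± 0.17. SERPINH1, the chaperone of the collagen helix, had 0.11 ± 0.23 and 0.41 ± 0.23, with its highest sample again shASXL2-3 number 1, at 17.3 CPM against 8.92 and 10.4 CPM in the other shASXL2-3 samples.

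Of the receptors, MRC2, which takes up collagen for degradation, had 266 CPM in shControl, 248 CPM in shASXL2-2 and 328 CPM in shASXL2-3, with a log2 fold change of 0.30 ± 0.11 in shASXL2-3 against shControl (adjusted p = 0.967, and 0.124 with the block). CD44, chiefly a hyaluronan receptor, had a log2 fold change of 0.47 ± 0.17 in shASXL2-3 against shControl (adjusted p = 0.967, and 0.0504 with the block). DDR2, a receptor kinase for fibrillar collagen, stayed at 0.402 CPM or less in the group means. Of the degrading enzymes, MMP2, a gelatinase, was abundant at 103 ± 38.2 CPM in shControl and fell by 0.91 on the log2 scale in samples numbered 1 (SE 0.14, adjusted p = 0.00108), whereas CTSK, a collagen-cutting cathepsin, rose there by 0.71 ± 0.17 (adjusted p = 0.00744). MMP14, a membrane-bound collagenase, was at -0.22 ± 0.16 there (adjusted p = 0.276). In the samples numbered 1 the 4 lists held 6, 5, 3 and 1 higher genes and 1, 2, 2 and 1 lower genes in the order named, against the 46.3% of all genes that were called.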

How the data were processed

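RNA of 9 SKNO-1 samples was sequenced. The study's methods describe poly(A) selection and unstranded libraries for RNA from sorted mouse cells and give no separate protocol for SKNO-1. That the same protocol was used here is therefore assumed. The authors deposited whole-number counts per RefSeq transcript on hg19 (GRCh37), not normalized. The submitters' processing notes name STAR, featureCounts and DESeq2, and the study's methods name Cuffdiff. Reads shared by isoforms were counted in each of them, so each symbol was represented by its row with the largest summed count, and a shift between isoforms can move such a count. Of the 44 members 17 had more than 1 row. The members and the gene lists were chosen with earlier results of these data known.

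Counts were tested with edgeR 4.0.16 in R 4.3.3 (filterByExpr at its defaults, at least 10 counts and at least 15 in total, TMM, quasi-likelihood F test, Benjamini-Hochberg adjustment over all 14199 genes, threshold 0.05). The main fit had 1 coefficient per group and 6 residual degrees of freedom, and the fit with the replicate block 4. The labels give the numbers 1, 13 and 25 to each group, and deviations from the group means correlated in all 9 same-numbered pairs (mean r 0.598, lowest 0.398), so the numbers were taken to pair the samples. The mean over 18 other pairs was -0.291. Deviations from a group mean cancel within the group, so this negative mean follows from the positive one and adds no support. The comparison of number 1 with 13 and 25 used the fit with the block. Standard errors were the fold change divided by the square root of F. The fits were checked on simulated data with 200 changed genes. Apart from those genes the simulated samples shared 1 expression profile, without an effect of the sample number. The check therefore cannot show how the fits behave under the number effect seen here. Lengths, coordinates and exon overlaps came from GENCODE v44lift37, with the canonical transcript of each gene. The floor of 3 counts covers counting error only, whereas the SDs and standard errors include the spread between samples. Values per sample were named for members with an unadjusted p under 0.05 between groups or a call with the block, and for the 5 highest per kilobase, and at most 3 genes of each other list. Alternatives were DESeq2 1.42.0, other scaling, filters and row choices, a length term, and leaving out samples. The fits with the block that left out 1 sample, those without all samples of a number, and DESeq2 with the block were chosen after seeing the data.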

Additional observations from a re-analysis of the deposited data

How the results depend on the processing

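No collagen was called between groups in the main fit or when any 1 sample was left out of it (0 in each comparison), nor with other size factors, no filter on low counts, summed rows, a length term alone or only the 2 groups compared in the fit. The count for shASXL2-3 against shControl rose to 1 (COL14A1) with the replicate block, with DESeq2, with DESeq2 and the block, and with the block without shASXL2-3 number 1 or number 13. For shASXL2-2 against shControl it was 1 (COL6A1) with the block without shASXL2-3 number 1. For shASXL2-3 against shASXL2-2 it was 1 with DESeq2 and the block (COL14A1, adjusted p = 0.0103) and 1 with the block without shASXL2-3 number 13 (COL6A1). The block changed no other call of a collagen between groups. Over all genes the 3 comparisons went from 0, 0 and 0 calls to 40, 59 and 15 with the block, to 25, 26 and 11 with DESeq2 and to 374, 474 and 152 with DESeq2 and the block; the cause was not tested. ASXL2, at -1.03 in shASXL2-2 and -1.12 in shASXL2-3 without a call, was called at -1.04 and -1.13 with the block, at -0.81 and -0.95 with the block and the length term, at -1.03 and -1.12 with DESeq2 and at -1.04 and -1.14 with DESeq2 and the block. Uncalled fold changes turned in sign when a sample was left out of the fit without the block, over these log2 ranges. For shASXL2-2 against shControl they were COL2A1 -0.079 to 0.17, COL7A1 -0.33 to 0.39, COL9A2 -0.28 to 0.18, COL9A3 -0.50 to 0.15, COL24A1 -0.59 to 0.064 and COL26A1 -0.12 to 0.36. For shASXL2-3 against shControl they were COL2A1 -0.11 to 0.025, COL5A2 -0.045 to 0.64, COL9A2 -0.36 to 0.61, COL9A3 -0.51 to 0.29, COL24A1 -0.47 to 0.23 and COL26A1 -0.52 to 0.15. Between the shRNAs they were COL2A1 -0.22 to 0.025, COL6A5 -0.36 to 0.14, COL9A2 -0.33 to 0.64, COL9A3 -0.35 to 0.48, COL18A1 -0.20 to 0.066, COL24A1 -0.085 to 0.36 and COL26A1 -0.63 to 0.036. For number 1 against 13 and 25 they were COL6A1 -0.086 to 0.71 and COL14A1 -0.13 to 0.38, the former negative without shASXL2-3 number 1 and the latter without shControl number 1. COL7A1 in shASXL2-2 turned from -0.13 to 0.046 with the length term and 0.087 with the length term and the block, and COL23A1 in shASXL2-2 was -0.0065 without the 3 samples numbered 13. The direction of COL14A1 in shASXL2-3 held under every alternative run, from -1.57 (without the 3 samples numbered 13) to -0.99 (without those numbered 1). With 1 sample left out of the fit without the block, the collagens at an unadjusted p under 0.05 numbered 0 to 1, 1 to 4 and 2 to 4 in the 3 comparisons between groups, and those called for number 1 against 13 and 25 numbered 5 to 6. With 10 counts or fewer in some samples, COL7A1 and COL26A1 were limited by depth.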

Other observations

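Of the members below the filter, COL8A2, a network collagen of the corneal basement layer, reached its highest value in shASXL2-3 number 1, with 16 counts against 2 to 10 in the other samples. COL6A6, a later-named chain of collagen VI, had 9, 11 and 3 counts in shControl, 0, 8 and 4 in shASXL2-2, and 4, 4 and 2 in shASXL2-3. COL25A1, a membrane-spanning collagen first known from brain plaques, had 2 to 10 counts in a sample. These values lie close to the floor of 3 counts and were not tested. Summing rows with different counts instead of taking the highest changed the totals of 3 members: COL2A1 from 876 to 1742 counts, COL6A5 from 1264 to 3762 and COL25A1 from 47 to 120. Reads shared by isoforms enter each row, so these sums count the same reads more than once. With its summed total COL25A1 passed the filter, and no comparison between groups was called for it in edgeR (smallest adjusted p = 0.988).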
